A study of Mus musculus with 21 samples.

Results

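The 10 genes described here encode regulators of epidermal differentiation, 9 DNA-binding factors or cofactors of them and the homeodomain-only protein Hopx: Klf4, Klf5, Trp63, Grhl3, Ovol1, Lmo4, Hopx, Cebpa, Cebpb and Zfp750, the mouse gene of ZNF750. They were chosen by name among 17403 genes with a tested probe set of their own, and every probe set annotated to one of them alone was taken, which gave 19 of the 45101 probe sets on the Affymetrix Mouse Genome 430 2.0 array. Of these 19, 18 passed the filter on low intensity and entered the test of 40540 probe sets, and all 10 genes kept at least 1. The probe set left out is 1452027_a_at of Trp63. Each gene was read at its tested probe set of highest mean, and the other probe sets are given beside it.

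Total RNA came from the dorsal skin of female albino hairless mice of the Hos:HR-1 stock, bought at 6 weeks of age and kept for 1 week before the study. Non-irradiated skin was sampled at week 1 and week 8, and UV-irradiated skin after 1, 2, 4, 6 and 8 weeks, with 3 arrays in each of the 7 groups. A lamp with its peak in the UVB range was used 3 times a week, starting at 1 minimal erythemal dose (MED, 100 mJ/cm2) and raised by 1 MED a week to 4 MED, where it stayed. The study places 3 mice in a group, but the labels give array numbers and not animals, so the p-values below measure the spread between arrays. Hairless mice keep only remnants of hair follicles after the first coat is lost, and whole back skin holds dermis, fat and muscle beside epidermis. Epidermal markers were checked at 4 genes, with mean log2 intensities over all arrays of 13.29 for Krt14, a keratin of the basal layer, 14.36 for Krt10, a keratin of the spinous layer, and 13.96 for Lor, a cornified envelope protein. Krt2, a keratin of the upper spinous layer, was near background, with a mean of 3.33.

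As background, the epidermis renews itself from a basal layer of dividing keratinocytes, which stop dividing as they move up and then pass through a spinous and a granular layer to the dead cornified layer. Trp63 sets and keeps the epithelial fate of basal cells, while Klf4, Grhl3, Ovol1, Cebpa, Cebpb and Zfp750 act at or after the exit from the cell cycle and drive late genes of the barrier. Klf5 is mainly a factor of proliferating basal cells, Hopx lies downstream in differentiating keratinocytes, and Lmo4 is a LIM-only cofactor that binds no DNA itself and joins Grhl3 and other factors into complexes.

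Promoter sequence is shown for the 3 genes with a RefSeq window whose level was lower at week 8 of irradiation against both controls, to set the regions before their starts side by side. RefSeq windows on build GRCm38.p6 were at hand for 6 of the 10 genes, and the first window of each gene is given, as the 250 bases before the annotated start. Klf4 lies at chr4:55532476-55532725, Lmo4 at chr3:144205256-144205505 and Hopx at chr5:77115124-77115373, all 3 on the minus strand and printed along the strand of the gene. Capitals mark the GC box GGGCGG on either strand, the core that Krüppel-like and Sp factors are known to bind.
Klf4: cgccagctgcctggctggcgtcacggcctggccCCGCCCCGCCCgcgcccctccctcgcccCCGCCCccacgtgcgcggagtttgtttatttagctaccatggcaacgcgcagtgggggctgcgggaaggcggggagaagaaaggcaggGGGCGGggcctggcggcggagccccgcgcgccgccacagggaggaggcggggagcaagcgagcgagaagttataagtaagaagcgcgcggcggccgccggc
Lmo4: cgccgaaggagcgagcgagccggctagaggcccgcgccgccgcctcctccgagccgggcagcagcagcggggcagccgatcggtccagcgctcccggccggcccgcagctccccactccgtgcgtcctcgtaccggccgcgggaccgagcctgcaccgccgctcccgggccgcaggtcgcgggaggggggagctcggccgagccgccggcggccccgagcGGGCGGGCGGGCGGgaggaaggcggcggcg
Hopx: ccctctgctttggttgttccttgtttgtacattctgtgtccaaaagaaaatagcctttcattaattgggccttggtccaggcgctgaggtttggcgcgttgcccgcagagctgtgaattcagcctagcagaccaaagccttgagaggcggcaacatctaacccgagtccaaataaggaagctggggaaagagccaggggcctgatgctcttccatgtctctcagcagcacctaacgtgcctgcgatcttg
The Klf4 window held 4 GC box matches, whose first bases lie 217, 212, 189 and 101 bases before the start, the first pair sharing a base. The Lmo4 window held 3, at 30, 26 and 22 bases, which overlap in one run, and the Hopx window held none. A GC box was found in 32.7% of all 32851 windows of this length. The same windows were searched on both strands for the KLF box CCCACCC, the AP-1 site TGANTCA, the C/EBP site TTGCNNAA and the TATA box TATAAA, which stood in 15.8%, 6.75%, 9.56% and 12.4% of all windows, and none of these 4 was in the 3 sequences shown. GC content was 74% in Klf4, 82.4% in Lmo4 and 52.4% in Hopx, against a median of 52.4% over all windows. Lmo4 and Hopx also had windows that are not shown. Those of Lmo4 each held 3 GC boxes and 1 KLF box, and 1 of them a C/EBP site, while that of Hopx held no match. These matches describe letters only.

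The arrays differed in a measure of RNA integrity. The log2 ratio of the 3' to the 5' control probe set of beta-actin, which is higher where RNA is more degraded, ran from 2.26 to 5.14, and 8 of 21 arrays had a ratio above 4. These 8 were 1 of control week 1, 2 of UV week 1, 1 of UV week 4, 2 of UV week 6 and 2 of UV week 8. Array 551 of UV week 8 stood apart from the other two of its group, with a ratio of 2.77 against 5.14 and 4.90, and array 12 of control week 1 stood apart with 4.74 against 2.55 and 2.37. Replicate arrays correlated with Pearson r of 0.957 to 0.996 over all probe sets, and no 2 were identical. Changes below are log2 differences between group means with the standard error of the limma fit, and a gene was called changed where its p-value, adjusted by Benjamini-Hochberg over all tested probe sets, was at most 0.05.

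**Figure D1:**
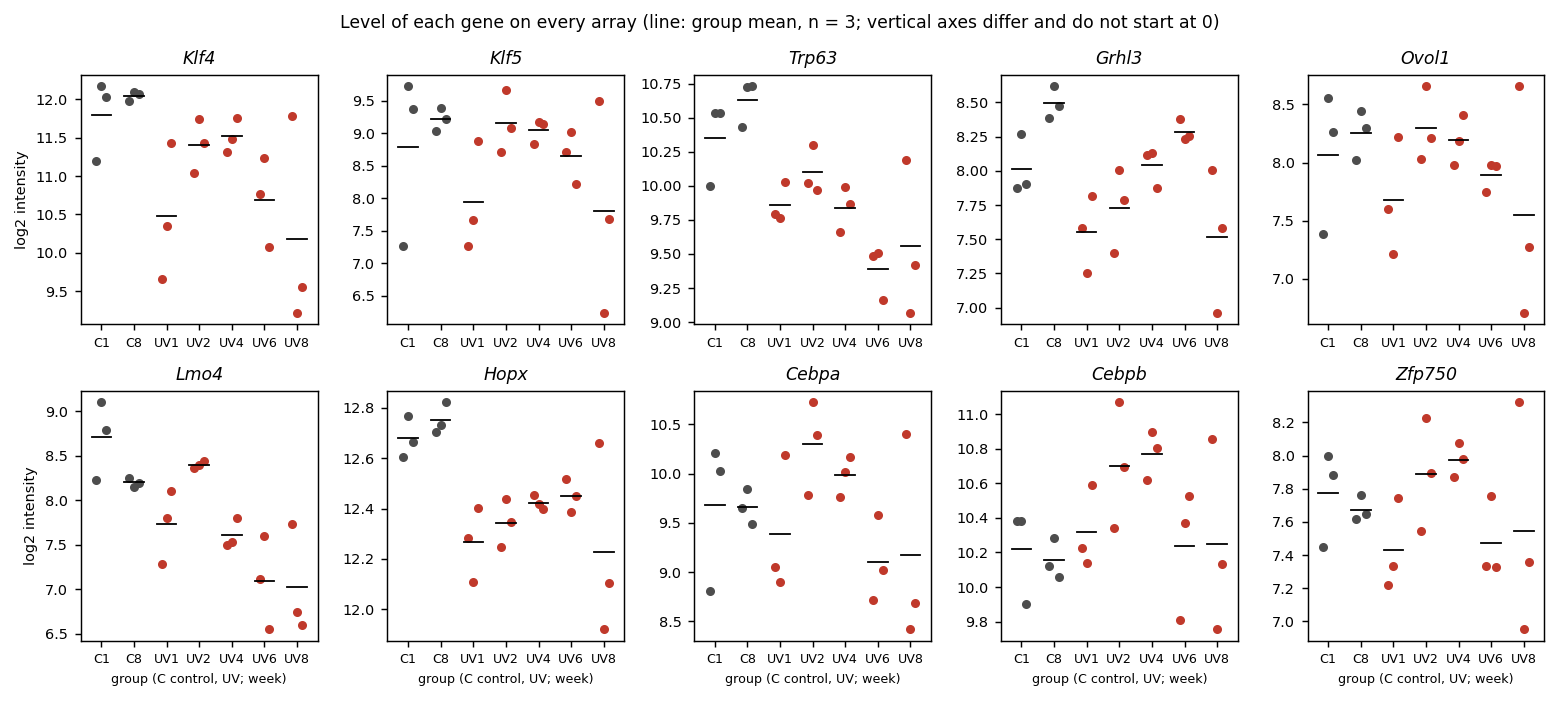
Log2 intensity (vertical axes, each gene on its own scale) of the 10 genes on every array, by group along the horizontal axis (C, non-irradiated; UV, irradiated; the number is the week); points are arrays and lines the group means of 3 arrays. Lmo4 and Trp63 lie low at UV weeks 6 and 8, and 1 of the 3 arrays of UV week 8 lies near the controls in most genes.

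Against control week 1, irradiated skin at week 8 had lower levels of 4 of the 10 genes, Klf4, Trp63, Lmo4 and Hopx, and higher levels of none. Of all tested probe sets, 6.73% were lower and 5.39% higher in the same comparison. The median change of the 10 genes was -0.52, beside 0.09 over all tested probe sets. Under the 2-fold rule of the study, which also leaves out genes that differ by 1.5-fold between the controls, Klf4 and Lmo4 were called, beside 2.04% of all tested probe sets in that direction. In whole skin, fewer cells of a type and less RNA per cell cannot be told apart.

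Lmo4 (probe set 1420981_a_at), the LIM-only cofactor, had its lowest levels at weeks 6 and 8 of irradiation. Its log2 intensities in control week 1 were 8.23, 9.10 and 8.79, and in control week 8 they were 8.25, 8.15 and 8.20. UV week 6 gave 7.12, 7.60 and 6.55, and UV week 8 gave 7.73, 6.75 and 6.59. Every array of both late irradiated groups thus lay below every control array. Lmo4 fell by 1.62 at week 6 (SE 0.29, n = 3 and 3, limma adjusted p = 0.00341) and by 1.68 at week 8 (SE 0.29, 3.20-fold, 95% interval -2.28 to -1.08, limma adjusted p = 0.00205). Against control week 8 the difference was -1.18 (SE 0.29, 2.26-fold, limma adjusted p = 0.0249). Lmo4 was the 1 gene of the 10 whose arrays at UV week 8 lay wholly below control week 1, which 8.33% of all tested probe sets did.

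Lmo4 was already lower than control week 1 at weeks 1 and 4, without passing the test. UV week 1 gave 7.28, 7.80 and 8.10, wholly below control week 1, with a difference of -0.98 (SE 0.29, limma adjusted p = 0.149). UV week 2 gave 8.36, 8.39 and 8.44, inside the control range, and UV week 4 gave 7.50, 7.53 and 7.80, again below it, with a difference of -1.09 (limma adjusted p = 0.0798). The levels were thus lower at week 1, near the controls at week 2 and lower from week 4 on, but neither the step from week 1 to week 2 (0.67, limma adjusted p = 0.202) nor that from week 2 to week 4 (-0.78, limma adjusted p = 0.696) passed. Without control week 1 array 12, the week 4 difference did pass, at -1.33 (limma adjusted p = 0.036). UV week 2 was also the only irradiated group with 0 arrays of a beta-actin ratio above 4. Beyond the alternative fits, the part of RNA integrity in this week course was not tested.

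The fall of Lmo4 at week 6 passed in all 6 fits that left out 1 array and in all 8 alternatives, with values from -1.87 to -1.35. At week 8 it passed in all 6 such fits against control week 1 and was lost in 1 of 9 alternatives, the fit to the compared groups alone. Without the 8 arrays of high beta-actin ratio the difference was -1.35 at week 6 and -1.21 at week 8. In that fit array 443 alone stands for UV week 6 and array 551 alone for UV week 8, so their spread is taken from other groups. The call against control week 8 was lost without any one of arrays 51, 53, 55, 552 and 555, where the values ran from -1.20 to -0.96, and without the arrays of high ratio, where it was -0.47.

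Trp63 (1418158_at), the regulator of the basal layer, fell at weeks 6 and 8. Its levels were 10, 10.53 and 10.53 in control week 1 and 10.43, 10.72 and 10.73 in control week 8. They were 9.49, 9.51 and 9.16 at UV week 6 and 10.19, 9.07 and 9.42 at UV week 8. The week 6 arrays lay wholly below both controls, while array 551 of week 8 overlapped control week 1. Trp63 fell by 0.97 at week 6 (SE 0.22, limma adjusted p = 0.0121), by 0.80 at week 8 (SE 0.22, 1.74-fold, limma adjusted p = 0.0277) and by 1.07 at week 8 against control week 8 (SE 0.22, 2.10-fold, limma adjusted p = 0.0116).

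At week 4 the Trp63 levels of 9.66, 9.99 and 9.87 also lay below control week 1, but the difference of -0.52 did not pass (limma adjusted p = 0.349). The differences were -0.50 at week 1 (limma adjusted p = 0.234) and -0.26 at week 2 (limma adjusted p = 0.995). The week 6 call was lost without control week 1 array 13 (-0.88, limma adjusted p = 0.072) or UV week 6 array 445 (-0.86, limma adjusted p = 0.055). Without the arrays of high beta-actin ratio, where array 443 alone stands for UV week 6, the difference was -1.02. The week 8 call was lost without any one of arrays 13, 16, 552 and 555 (-0.72 to -0.55), and the difference was -1.11 without array 551. It was -0.34 without the arrays of high ratio, where array 551 alone stands for UV week 8. The call against control week 8 was lost without any one of arrays 55, 552 and 555 (-1.02 to -0.82) and without the arrays of high ratio (-0.43). The other probe sets of Trp63 were dim: 1451876_a_at lay between 3.28 and 3.95 over all arrays, 1459581_at between 3.95 and 4.85, and 1452027_a_at, which was not tested, between 2.87 and 3.43.

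Klf4 (1417394_at), a factor of the differentiating layers and of barrier formation, had the largest difference against control week 8. Its levels were 11.19, 12.18 and 12.03 in control week 1 and 11.98, 12.09 and 12.07 in control week 8, against 11.79, 9.21 and 9.55 in UV week 8. Array 551 lay within the range of control week 1, while the other two lay well below every control. Klf4 fell by 1.61 against control week 1 (SE 0.51, 3.06-fold, 95% interval -2.69 to -0.54, limma adjusted p = 0.0475) and by 1.86 against control week 8 (SE 0.51, 3.64-fold, 95% interval -2.94 to -0.79, limma adjusted p = 0.0384).

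The Klf4 call was near the threshold and changed with single arrays and with the processing. Against control week 1 it was lost in 5 of 9 alternatives (no filter, quantile normalization, log2(intensity + 32), no arrays of high beta-actin ratio and the compared groups alone), and against control week 8 in 3 of 8. Leaving out arrays, against control week 1 it was lost without any one of arrays 13, 16, 552 and 555, with values from -1.5 to -1.13, and against control week 8 without any one of arrays 51, 53, 55, 552 and 555, with values from -1.90 to -1.38. Without array 551 the difference was -2.42 against control week 1 (limma adjusted p = 0.00038) and -2.67 against control week 8. Without the arrays of high beta-actin ratio, where array 551 alone stands for UV week 8, the difference was -0.31 (limma adjusted p = 0.62) and -0.26. In 6 of the 7 groups the array of the highest ratio had the lowest Klf4 level, and beyond the alternative fits the part of RNA integrity in the result was not tested. The second probe set of Klf4, 1417395_at, differed by -1.33 (limma adjusted p = 0.0786) and -1.27 (limma adjusted p = 0.109), which did not pass.

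At the other weeks Klf4 did not pass. UV week 1 gave 9.66, 10.35 and 11.43, a difference of -1.32 (SE 0.51, limma adjusted p = 0.197), and UV week 6 gave 10.77, 11.24 and 10.08, a difference of -1.10 (limma adjusted p = 0.148). Weeks 2 and 4 lay nearer the controls, with differences of -0.39 and -0.28.

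Hopx (1428662_a_at), the homeodomain-only protein, fell by the smallest amount of the genes called. Its levels were 12.61, 12.77 and 12.67 in control week 1, 12.70, 12.73 and 12.82 in control week 8 and 12.66, 11.92 and 12.10 in UV week 8. The difference was -0.45 against control week 1 (SE 0.14, 1.37-fold, limma adjusted p = 0.0476) and -0.52 against control week 8 (SE 0.14, 1.44-fold, limma adjusted p = 0.0378). In weeks 1, 2, 4 and 6 every irradiated array, from 12.11 to 12.52, lay below every array of control week 1, but no difference, from -0.41 to -0.23, passed the test.

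The Hopx call at week 8 was lost in 4 of 9 alternatives against control week 1 and in 3 of 8 against control week 8. It was lost without any one of arrays 12, 13, 16, 552 and 555 (-0.49 to -0.30), and against control week 8 without any one of arrays 51, 53, 55, 552 and 555 (-0.55 to -0.37). It was -0.67 and -0.74 without array 551, and -0.06 and -0.09 without the arrays of high beta-actin ratio. The second probe set, 1451776_s_at, differed by -0.90 against control week 1 (limma adjusted p = 0.171).

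Grhl3 (1436932_at), the grainyhead-like factor of barrier formation, was lower at week 8 against control week 8 alone. Its levels were 7.87, 8.27 and 7.90 in control week 1, 8.38, 8.62 and 8.47 in control week 8 and 8.00, 6.96 and 7.58 in UV week 8. The control arrays of week 8 all lay above those of week 1, as 6.19% of all tested probe sets did, and the difference of 0.48 between them did not pass (limma adjusted p = 0.933). Grhl3 fell by 0.98 against control week 8 (SE 0.21, 1.97-fold, 95% interval -1.42 to -0.53, limma adjusted p = 0.0153), and the difference from control week 1 was -0.50 (95% interval -0.94 to -0.05, limma adjusted p = 0.121). At UV week 6 it was at 8.37, 8.23 and 8.25, each above at least 2 of the 3 arrays of control week 1. The call was lost without any one of arrays 53, 55, 552 and 555 (-1.01 to -0.70) and without the arrays of high beta-actin ratio (-0.49), and without array 551 it was -1.22.

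Against control week 8, irradiated skin at week 8 thus had lower levels of 5 of the 10 genes, Klf4, Trp63, Grhl3, Lmo4 and Hopx, beside 4.30% of all tested probe sets, and higher levels of none, beside 2.56%. The irradiated arrays of these 5 genes lay wholly below control week 8, as those of 9.82% of tested probe sets did. The median change of the 10 genes was -0.84, beside 0.09 over all tested probe sets. Klf4, Trp63 and Lmo4 passed the 2-fold rule, beside 1.45% of tested probe sets in that direction. This comparison shares its 3 irradiated arrays with the one against control week 1. With the mean of both controls as baseline the same 5 genes were lower and none higher, beside 9.4% and 8.8% of tested probe sets. None of the 10 genes differed between the 2 controls in the limma fit, 0 lower and 0 higher, beside 0.0296% of tested probe sets in each direction. At an unadjusted p under 0.05, 1 gene, Grhl3, was higher in control week 8, as were 967 of 40540 tested probe sets.

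**Figure D2:**
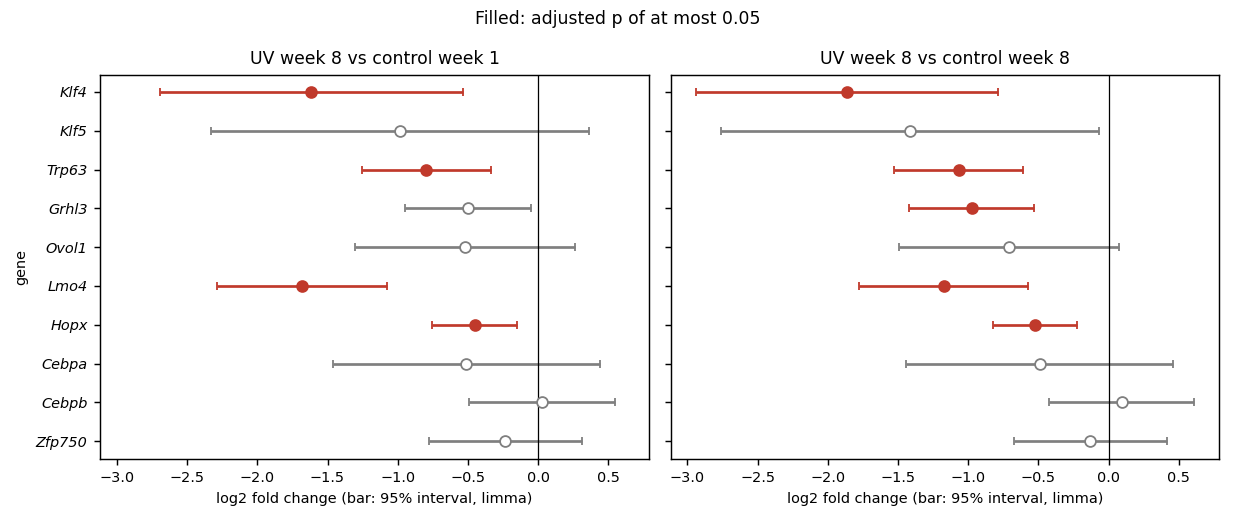
Log2 differences at UV week 8 (horizontal axis) of the 10 genes against each control, with 95% intervals of the limma fit from 3 and 3 arrays. Lmo4 lies farthest to the left against control week 1 and Klf4 against control week 8, while the interval of Cebpb spans 0 against both controls.

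Cebpa, Cebpb, Zfp750, Klf5 and Ovol1 did not pass at week 8 against either control. Cebpb (1418901_at), a C/EBP factor of early differentiation and of the stress response, was at 10.38, 10.38 and 9.90 in control week 1 and at 10.86, 9.76 and 10.13 in UV week 8. The difference was 0.03 (95% interval -0.49 to 0.55, limma adjusted p = 0.952). Its levels were highest at week 4, with 10.62, 10.90 and 10.80, every array above control week 1, a difference of 0.55 (SE 0.25, limma adjusted p = 0.384). This was the 1 gene of the 10 wholly above control week 1 in any irradiated week, beside 11.9% of all tested probe sets at week 4. Weighting the arrays by their spread in limma, Cebpb passed at week 2 and at week 4. The second probe set, 1427844_a_at, ranged from 3.80 to 7.26.

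Cebpa (1418982_at), a C/EBP factor of differentiated keratinocytes and also of fat and sebaceous cells, was at 8.81, 10.21 and 10.02 in control week 1 and at 10.41, 8.42 and 8.68 in UV week 8. The irradiated arrays lay on both sides of the control range, and the difference was -0.51 (95% interval -1.46 to 0.44, limma adjusted p = 0.443). Without array 551 it was -1.13 and passed (limma adjusted p = 0.031). Without the arrays of high beta-actin ratio, where array 551 alone stands for UV week 8, the difference was 0.29. With the ratio as a term of the model it was 0.05. At week 2 the level was 9.78, 10.73 and 10.39, a difference of 0.62 (limma adjusted p = 0.978).

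Zfp750 (1437469_at), which acts downstream of Trp63 and upstream of Klf4 in terminal differentiation, was at 7.45, 8.00 and 7.88 in control week 1 and at 8.32, 6.95 and 7.36 in UV week 8. The 3 irradiated arrays spanned more than the whole control range, and the difference was -0.23 (95% interval -0.78 to 0.31, limma adjusted p = 0.551). Without array 551 it was -0.62 and passed (limma adjusted p = 0.028). Without the arrays of high beta-actin ratio, where array 551 alone stands for UV week 8, the difference was 0.38. With the ratio as a term of the model it was 0.06.

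Klf5 (1451021_a_at), the Krüppel-like factor of proliferating basal cells, was at 7.27, 9.73 and 9.37 in control week 1, at 9.03, 9.39 and 9.23 in control week 8 and at 9.49, 6.23 and 7.68 in UV week 8. Array 12 of control week 1 lay between the low irradiated arrays 552 and 555. The difference was -0.98 (95% interval -2.33 to 0.36, limma adjusted p = 0.295) against control week 1. Against control week 8 it was -1.41 (95% interval -2.76 to -0.07, limma adjusted p = 0.163). Without array 551 the differences were -1.83 (limma adjusted p = 0.019) and -2.26. Without the arrays of high beta-actin ratio, where array 551 alone stands for UV week 8, they were -0.05 and 0.28. With the ratio as a term of the model they were -0.20 and -0.71. A dim probe set of Klf5, 1430255_at, was higher at UV week 8. Its levels were 4.12, 4.09 and 4.05 there against 3.57, 3.63 and 3.66 in control week 1. The rise was 0.47 against control week 1 (limma adjusted p = 0.0133) and 0.45 against control week 8 (limma adjusted p = 0.026). Both calls were lost with quantile normalization, without the arrays of high ratio and in the compared groups alone. The first was also lost without array 13, the second without any one of arrays 51, 53, 55, 552 and 555. The third, 1451739_at, ranged from 3.67 to 4.35.

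Ovol1 (1419051_at), a zinc finger factor that restrains growth of keratinocytes as they differentiate, was at 7.38, 8.56 and 8.26 in control week 1 and at 8.66, 6.71 and 7.28 in UV week 8. Array 551 lay above the whole range of control week 1 and the other two below it. The difference was -0.52 (95% interval -1.30 to 0.27, limma adjusted p = 0.344), and without array 551 it was -1.07 and passed (limma adjusted p = 0.012). Without the arrays of high beta-actin ratio, where array 551 alone stands for UV week 8, the difference was 0.25. With the ratio as a term of the model it was -0.12. The second probe set, 1419052_at, ranged from 6.31 to 7.79.

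Before week 6 none of the 10 genes passed. In the limma fit 0 were lower and 0 higher at week 1, beside 0.0123% and 0% of tested probe sets. At an unadjusted p under 0.05, 5 were lower (Klf4, Trp63, Grhl3, Lmo4 and Hopx), beside 3803 of all 40540 tested probe sets. At week 2 none passed, beside 0.0296% lower and 0.0321% higher, and 1 was lower at that unadjusted p, beside 1365 of 40540. At week 4 none passed, beside 0.772% and 0.36%. There 2 were lower and 1 higher at that unadjusted p, beside 2697 and 2150 of 40540. The arrays of Grhl3, Lmo4 and Hopx lay wholly below control week 1 at UV week 1, as those of 7.85% of tested probe sets did. At week 4 those of Trp63, Lmo4 and Hopx did, beside 9.22%, and at week 2 those of Hopx alone, beside 6.48%.

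At week 6 the 2 genes Trp63 and Lmo4 were lower and none higher, beside 6.30% and 5.43% of tested probe sets, and Lmo4 passed the 2-fold rule, beside 1.53%. The same 2 and Hopx lay wholly below control week 1, beside 13.6%. The median change of the 10 genes was -0.44 after 1 week, -0.07 after 2, 0.08 after 4 and -0.27 after 6, while that of all tested probe sets stayed between -0.00 and 0.08. All 5 of these comparisons use the same 3 arrays of control week 1. Of the irradiated groups, UV week 2 alone had 0 arrays of a beta-actin ratio above 4. The part of RNA integrity in the course of these medians was not tested beyond the alternative fits.

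**Figure D3:**
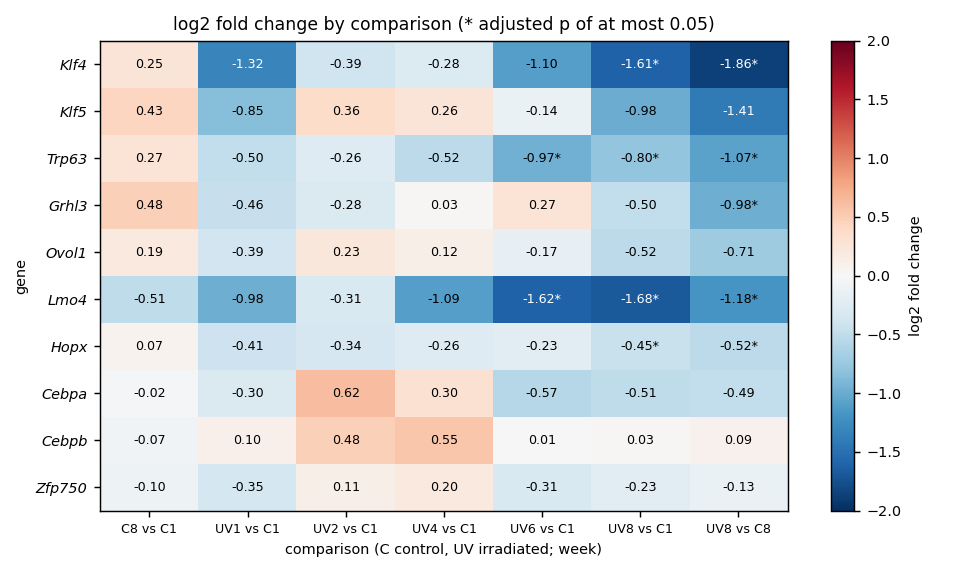
Log2 change of each gene (vertical axis) in each comparison (horizontal axis); colour gives the difference between group means of 3 arrays, and an asterisk marks an adjusted p of at most 0.05. Asterisks appear at UV weeks 6 and 8 for Lmo4 and Trp63, and at week 8 for Klf4, Hopx and Grhl3.

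Tests of the irradiation effect at week 8, measured against control week 8, with that at week 1, measured against control week 1, found 0 of the 10 genes different and 0 at an unadjusted p under 0.05, beside 0% of tested probe sets lower and 0.00247% higher in the limma fit. The difference of the effects was -0.55 for Klf4 (SE 0.73), -0.57 for Trp63 (SE 0.31), -0.51 for Grhl3 (SE 0.30) and -0.20 for Lmo4. None of the 10 genes passed in a step between consecutive irradiated weeks either, where at most 0.00493% of tested probe sets were lower and 0.00987% higher, and where Lmo4 at 2 steps and Grhl3 and Cebpb at 1 each had an unadjusted p under 0.05. Lmo4 lay wholly above at week 2 (beside 12%) and wholly below at week 4 (beside 8.7%), and Grhl3 wholly below at week 8 (beside 2.3%). From week 4 to week 6 the arrays of 6 genes lay wholly below those of the earlier week (Klf4, Trp63, Ovol1, Cebpa, Cebpb and Zfp750), beside 10.3% of tested probe sets, and those of Grhl3 wholly above, beside 12.3%.

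The count of genes called at week 8 differed between fits that left out arrays or took the beta-actin ratio into account. Without array 551, 9 of the 10 genes were lower at week 8 against control week 1, all but Cebpb, with a median change of -1.09, beside 16.8% of tested probe sets. Without the 8 arrays of high ratio, 1 gene, Lmo4, was lower, with a median of -0.05, beside 1.34%. That fit leaves 1 array at UV weeks 1, 6 and 8, which is assumed to vary like the arrays of the other groups. With the ratio as a term of the model, 3 genes were lower (Klf4, -0.96, limma adjusted p = 0.021; Trp63, -0.57, limma adjusted p = 0.032; Lmo4, -1.32, limma adjusted p = 4.4e-05) with a median of -0.28, beside 5.97%. Against control week 8, with the ratio as a term, Klf4 was at -1.28 (limma adjusted p = 0.006) and Trp63 at -0.87 (limma adjusted p = 0.0041). Grhl3 was at -0.84 (limma adjusted p = 0.0146) and Lmo4 at -0.85 (limma adjusted p = 0.0031), while Hopx, at -0.44, did not pass (limma adjusted p = 0.0551). Beyond the alternative fits, the part of RNA integrity in the results was not tested.

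**Figure D4:**
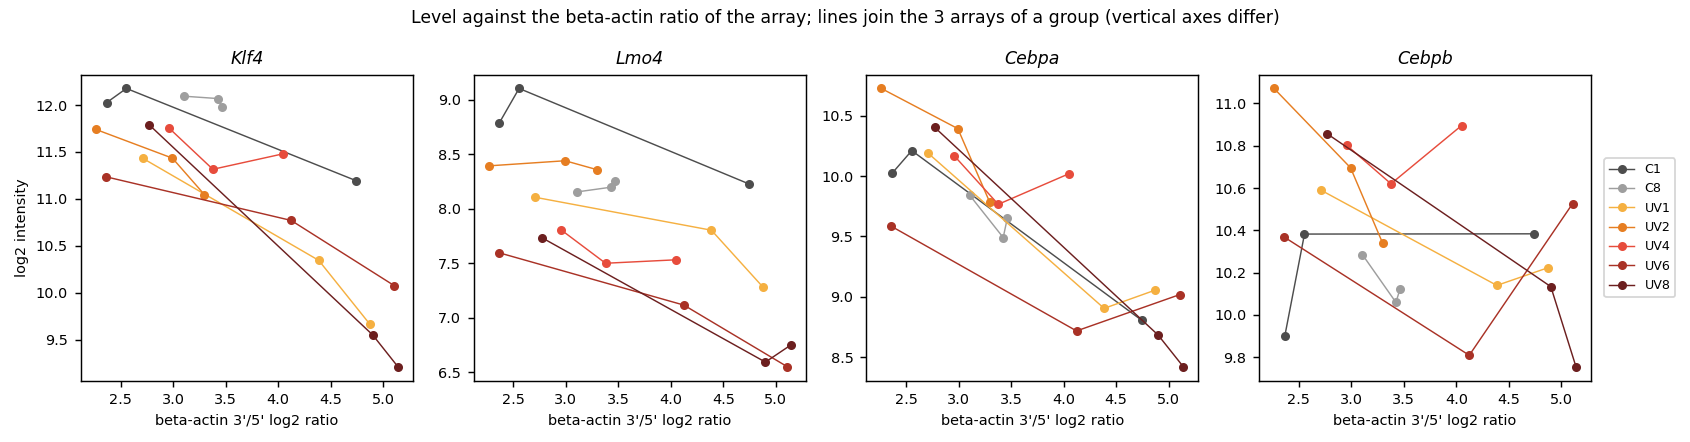
Log2 intensity (vertical axes, each gene on its own scale) of Klf4, Lmo4, Cebpa and Cebpb against the 3'/5' log2 ratio of beta-actin on the same array (horizontal axis); lines join the 3 arrays of a group. Klf4 is lowest on the array of the highest ratio in 6 of 7 groups and Cebpb in 2 of 7, and the array of the lowest ratio is highest in 6 of 7 groups for Klf4 and Cebpa and in 4 of 7 for Lmo4 and Cebpb.

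Within groups, the array with the highest ratio had the lowest level in 6 of 7 groups for Klf4, Klf5 and Zfp750, in 4 of 7 for Trp63, Grhl3, Ovol1, Lmo4 and Hopx, in 3 of 7 for Cebpa and in 2 of 7 for Cebpb. The array with the lowest ratio had the highest level in 6 of 7 groups for Klf4, Ovol1 and Cebpa, in 5 of 7 for Klf5, Trp63 and Zfp750, in 4 of 7 for Grhl3, Lmo4 and Cebpb and in 3 of 7 for Hopx. Across the 7 group means, which share their arrays and normalization, the closest pair of genes was Klf5 and Ovol1 (r = 0.99), followed by Klf4 and Ovol1 (r = 0.90), while Trp63 and Lmo4 had an r of 0.87 and Hopx and Cebpb one of -0.36. The gene with the largest change at week 8 against control week 1 was Lmo4, and the 5 genes most like it over the 21 arrays by Pearson r were Deptor (0.972), Ssh2 (0.964), Nedd4 (0.962), Cd47 (0.960) and Tgif1 (0.960). These correlations are descriptions, since all 21 arrays enter both genes of a pair.

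Of 31 measured genes of a list of 33 other regulators of epidermal differentiation, 4 were lower and 1 higher at week 8 against control week 1, beside 6.73% and 5.39% of all tested probe sets, with a median of -0.26. Against control week 8, 1 was lower and none higher, beside 4.30% and 2.56%, with a median of -0.15. Dlx3, a homeobox factor of the upper epidermis and hair, ranged from 8.49 to 9.48 in control week 1, from 8.02 to 8.12 in control week 8 and from 7.62 to 7.74 in UV week 8. The arrays of control week 8 thus lay wholly below those of control week 1, but none of the 31 genes passed between the controls. Dlx3 fell by 1.27 against control week 1 (SE 0.19, limma adjusted p = 0.00095), and the difference from control week 8 was -0.39, which did not pass (limma adjusted p = 0.194). Msx2, a homeobox factor of follicles and epidermis, had means of 7.38, 6.50 and 6.03 in the same 3 groups, a fall of 1.34 against control week 1 (SE 0.24, limma adjusted p = 0.00263) and a difference of -0.47 from control week 8 (limma adjusted p = 0.211). Vdr, the vitamin D receptor, fell by 0.60 against control week 1 (limma adjusted p = 0.00691), and Maf, a leucine zipper factor of late differentiation, rose by 0.61 (limma adjusted p = 0.0412), while against control week 8 their differences of -0.25 and 0.20 did not pass.

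Of 27 measured genes of the granular and cornified layers, 0 were lower and 2 higher at week 8 against control week 1 in the limma fit, with a median of 0.08. Of all tested probe sets, 5.39% were higher there. Rptn, a protein of the cornified envelope, rose by 2.34 (SE 0.54, limma adjusted p = 0.0119) and Lce1g, a late envelope protein, by 1.30 (SE 0.21, limma adjusted p = 0.00164). At week 6, 6 of these genes were higher and none lower, beside 5.43% and 6.30% of all tested probe sets. At week 8 against control week 8, 4 were higher and none lower, beside 2.56% and 4.30%, with a median of -0.05. Of 9 genes of the spinous layer 2 were lower and none higher at week 8 against control week 1, with a median of -0.08. Krt77 fell by 6.00 (SE 0.73, limma adjusted p = 0.000144), while Krt10 differed by -0.02 and did not pass. The other was Krt2, which lay near background with 3.17 to 4.31 in control week 1 and 2.76 to 3.25 in UV week 8 (limma adjusted p = 0.0406), so the size of its difference is not given. Of 10 basal genes 1 was lower and none higher, with a median of -0.46 and a range from -1.91 to 0.06. Krt15, a keratin of quiescent basal and bulge cells, fell by 1.91 (SE 0.41, limma adjusted p = 0.00859), and Krt14 differed by -0.07 and did not pass. Of all tested probe sets 6.73% were lower in this comparison. Of 4 keratins of wounded epidermis 1 was higher and none lower, beside 5.39% of all tested probe sets higher, with a median of 0.36 and a range from -1.34 to 2.53. The 1 was Krt6b, which rose by 2.53 (limma adjusted p = 0.00609), and the other 3 did not pass.

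Markers of other compartments of the skin were read against both controls, beside 6.73% of all tested probe sets lower against control week 1 and 4.30% against control week 8. Of 16 genes of hair shaft and inner root sheath, 0 passed after 1 week in the limma fit, 1 fell after 2, 15 after 4, 12 after 6 and 15 after 8, with a median of -3.43 after 8 and Krt86 down by 4.39 (limma adjusted p = 0.00044). Their summed level was 15.1 to 15.8 on the log2 scale in control week 1 and 9.94 to 12.9 in UV week 8, and 2 of the 16 were also lower in control week 8 than in control week 1. Of 7 skeletal muscle genes 4 fell at week 8 (Ckm, Tnnt3, Acta1 and Mylpf; median -1.40, summed level 16.0 to 16.3 against 14.7 to 15.3), of 7 adipocyte genes 3 (Lep, Adipoq and Fabp4; median -1.08, 14.2 to 14.5 against 13.2 to 13.7) and of 8 fibroblast genes 3 (Dcn, Col1a1 and Lum; median -0.64, 15.8 to 16.0 against 15.1 to 15.6). Of 6 endothelial genes 2 fell (Cdh5 and Kdr, median -0.43, summed level 9.30 to 9.72 against 8.96 to 9.35). Of 7 sebaceous genes 1 rose, Mc5r (by 0.76), and their summed level was 14.7 to 15.4 against 14.8 to 15.8. Mc5r itself was dim, with 4.11 to 4.66 in control week 1 and 4.74 to 5.46 in UV week 8. Of 10 myeloid genes none passed (median 0.08, summed level 14.6 to 14.8 against 14.6 to 14.8). Against control week 8 fewer passed: 7 of 16 hair genes fell (median -1.96), 3 of 7 muscle genes (-1.11), 2 of 8 fibroblast genes (-0.54) and 1 of 6 endothelial genes (-0.31), while none of 7 adipocyte (-0.47), 7 sebaceous (-0.25) or 10 myeloid genes (-0.08) passed in the limma fit. Control week 8 itself differed from control week 1 by a median of -1.51 in the hair genes and -0.61 in the adipocyte genes. No marker list is at 0 on these arrays, where background gives every probe set an intensity, and the part of these compartments in the levels of the 10 genes was not tested.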

How the data were processed

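RNA of mouse dorsal skin was hybridised to Affymetrix Mouse Genome 430 2.0 arrays, 21 in 7 groups taken from the sample labels. The authors deposited 1 linear intensity per probe set and array, after background correction and normalization. The methods name Expression Console with a Microarray Suite 5 preprocessor, and the submitters' processing notes name RMA. The lowest intensity is 4.35 and array medians run from 30.1 to 33.3. Detection calls were not used here.

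Values under 1 were set to 1 before taking log2. Probe sets under the 20th percentile on every array were not tested, and 64 control probe sets were left out, leaving 40540 of 45101. Of these, 32317 carry 1 gene symbol in the platform annotation, 853 several and 7370 none. Probe sets with several symbols were given to no gene. The model, from lmFit and eBayes of limma 3.58.1 (R 4.3.3), held a mean for each of the 7 groups and left 14 residual degrees of freedom. Benjamini-Hochberg adjustment ran over all probe sets tested in a comparison. The fit was tested on simulated data, with noise drawn independently for each probe set and array. That test does not cover shifts that many probe sets of an array share. The number of arrays limits the precision. Figures used matplotlib 3.10.9 and Python 3.11.15.

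The 10 genes, the 165 listed genes of which 152 had a tested probe set, and the tests were chosen with earlier results of these data known. Named were all 10 genes with their probe sets, up to 4 genes a list with the largest change among those passing at UV week 8 against control week 1, the 5 genes most like Lmo4, and, outside that rule, Krt10, Krt14 and Lor. Alternatives comprised no filter, quantile normalization, log2(intensity + 32), the beta-actin or Gapdh 3'/5' ratio as a term, array weights, the probe set of largest spread, both controls as baseline, the compared groups alone and each array left out. A fit without the 8 arrays whose beta-actin log2 ratio exceeds 4 was added after seeing the data.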

Additional observations from a re-analysis of the deposited data

How the results depend on the processing

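No paired analysis was possible because no group has an array number of another group. Over 80 pairs of a gene and a comparison, 1190 alternative fits gave the same outcome, called or not called, in 1091. They lost a call in 61, gained one in 38 and reversed none. Most pairs were not called in the report, and a call could be lost only where there was one. Those were 2 genes at week 6, 4 at week 8 against control week 1 and 5 against control week 8, so the 61 losses all fall on these. The number of the 10 genes called at UV week 8 against control week 1, 4 in the report, became 2 with quantile normalization, 9 with array weights, 1 without the arrays of high beta-actin ratio, 0 in the fit to the compared groups alone and 2 under the 2-fold rule. Against control week 8 the number, 5 in the report, became 8 with array weights and 0 both without the arrays of high ratio and in the compared groups alone. None passed at weeks 1, 2 and 4 in the report. Array weights gave 6 after 1 week, 1 after 2 and 3 after 4. The Gapdh ratio as a term gave 1 at week 1 and 1 at week 4, the beta-actin ratio gave 1 at week 4, and without the arrays of high ratio 2 at week 4 and 1 between the controls. Leaving out 1 array at a time, the number ran from 1 (without control week 1 array 13 or 16, or UV week 8 array 552 or 555) to 9 (without UV week 8 array 551) at week 8 against control week 1. It ran from 0 (without control week 8 array 55, or UV week 8 array 552 or 555) to 8 (without array 551) against control week 8, with 2 without array 51 and 1 without array 53, from 1 (without array 13 or 445) to 2 at week 6, and from 0 to 1 (without array 12) at week 4. It stayed at 0 at weeks 1 and 2, between the controls and for the difference of effects between weeks 8 and 1. Probe sets near background, such as the dim ones of Trp63 and Klf5, limit what a change there can show.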
